A study of Mus musculus with 2 samples.

Results

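The collagen gene family was described in 2 microarrays of medullary thymic epithelial cells (mTEC), the stromal cells that display tissue antigens to developing T cells. The family comprised every gene whose probe set carried a single symbol of the form Col, number, a, number, and it held 44 of the 19937 named genes, from 27 collagen types. They were grouped as 11 fibrillar, 9 basement membrane, 9 FACIT (fibril-associated, with interrupted helices) and 4 transmembrane genes. The remaining 11 genes encode beaded-filament (type VI), short-chain (types VIII and X) and other collagens, and were kept as a group of their own. These are 44 of the 44 genes with such a symbol in the RefSeq gene table. The rule reads gene symbols and uses no measured value, although the family was proposed with earlier results of these data known.

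Both arrays came from B6 mice, 6 weeks old and with floxed alleles of Hdac3, a histone deacetylase. The WT-labelled array was from HDAC3fl/fl mice without Cre. The HDAC3cKO-labelled array was from HDAC3fl/fl mice with Foxn1-Cre, a recombinase driven by the promoter of a thymic epithelial gene, so that the deletion is aimed at epithelium and not at other stroma. The sorted cells were EpCAM+ and CD45-, with low Ly51 and low class II MHC at their surface. About 30000 sorted cells were pooled for each RNA extraction, typically from 10 to 30 mice for the HDAC3cKO genotype. Each genotype had 1 array, so values have no replicate error, no test was possible, and every difference compares these 2 arrays. Hdac3 itself read 10.90 on the WT-labelled array and 11.64 on the HDAC3cKO-labelled one (log2 intensity), a difference of 0.74 against the direction of the label. The exons that its probes cover were not known here, and every direction below rests on the labels.

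Collagens are secreted or membrane proteins in which polypeptide chains wind into a helical trimer built on glycine at regular intervals. The fibrillar types I, III and V form the fibres of connective tissue and are made mainly by fibroblasts. Type IV forms the sheet under epithelium and around vessels, with types XV and XVIII at its margin and type VII anchoring it to the tissue beneath. FACITs coat fibrils, type VI forms beaded microfibrils between fibrils and basement membranes, and type XVII spans the membrane of basal epithelial cells at hemidesmosomes. In the thymus, fibroblasts of the capsule and septa, vessel walls and the epithelium itself all lie on or within such matrix.

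Promoter sequence from RefSeq (build GRCm38.p6) was matched for 35 of the 44 genes, in 38 windows since some genes have more than 1 start. Col1a1 and Col14a1 are among the 9 genes without a window, so neither could be shown. The last 150 bases before the start are shown for a few chains of the types the results turn on: type I, type III, type XVIII, and the Col6a1 and Col6a2 chains of type VI. For Col6a2 the outermost of its starts is used. Col6a4 is not shown because its start lies inside the span RefSeq gives the gene, and it has no outer window as Col18a1 does. The windows of Col6a3, Col6a5 and Col6a6 are not shown either. Within 250 bases of a start, Col6a2, Col6a4, Col6a5 and Col6a6 had GGGCGG matches. Col6a4 also had a CCAAT match, and Col6a1 and Col6a3 had neither. Capitals mark matches to the CCAAT box (ATTGG on the opposite strand), to the GC box GGGCGG (whose reverse complement is CCGCCC) and to the TATA-type element TATAAA (with TTTATA as its reverse complement). These do not overlap in the lines shown, and each line reads 5′ to 3′ on the strand of the gene.
Col1a2, chr6:4505468-4505617, plus strand: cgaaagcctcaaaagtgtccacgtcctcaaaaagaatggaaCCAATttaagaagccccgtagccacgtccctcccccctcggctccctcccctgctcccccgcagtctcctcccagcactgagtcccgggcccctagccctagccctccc
Col3a1, chr1:45311388-45311537, plus strand: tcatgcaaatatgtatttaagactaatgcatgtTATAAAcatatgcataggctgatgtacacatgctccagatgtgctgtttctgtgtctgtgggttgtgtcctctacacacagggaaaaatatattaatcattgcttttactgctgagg
Col18a1, upstream start, chr10:77166531-77166680, minus strand: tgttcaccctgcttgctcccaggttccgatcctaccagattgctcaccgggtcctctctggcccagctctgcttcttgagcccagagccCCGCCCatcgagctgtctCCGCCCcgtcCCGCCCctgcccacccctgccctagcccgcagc
Col18a1, internal start, chr10:77113706-77113855, minus strand: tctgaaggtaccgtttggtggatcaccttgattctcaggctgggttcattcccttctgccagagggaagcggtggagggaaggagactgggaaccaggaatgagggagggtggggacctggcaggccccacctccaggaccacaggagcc
Col6a1, chr10:76726045-76726194, minus strand: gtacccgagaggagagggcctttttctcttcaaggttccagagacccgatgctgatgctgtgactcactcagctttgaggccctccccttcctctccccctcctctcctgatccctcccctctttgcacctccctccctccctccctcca
Col6a2, chr10:76623631-76623780, minus strand: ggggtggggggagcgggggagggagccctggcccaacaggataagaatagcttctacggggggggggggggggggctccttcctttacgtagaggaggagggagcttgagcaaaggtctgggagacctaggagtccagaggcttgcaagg
The upstream start of Col18a1 had 3 GGGCGG matches in these 150 bases and its internal start had none of the letters searched. Col1a2 had 1 CCAAT match, at 109 bases before its start, and Col3a1 1 TATAAA match, at 117 bases. Over the full 250 bases before each start, GGGCGG was found in 57.9% of the 38 collagen windows, 42.6% of the 21263 windows of protein-coding genes and 32.7% of all 32851 windows. The median GC content of the collagen windows was 59.0%, against 55.6% for protein-coding genes. CCAAT was found in 34.2% of collagen and 35.4% of protein-coding windows, and TATAAA in 13.2% and 11.6%. A match describes letters in a window and not a bound site.

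Most collagen genes read nearly alike on both arrays. The median difference of the 44 genes, as log2 intensity on the HDAC3cKO-labelled array minus that on the WT-labelled one, was -0.01, and that of all named genes was 0.01. Of the 44, 22 differed by less than 0.2 in either direction and 35 by less than 0.5, which is 50.0% and 79.5%, beside 46.3% and 76.4% of all named genes. Col18a1 and Col14a1 were at least 2-fold higher, 2 of 44 genes beside a background of 2.97% of all named genes, and Col6a4 was at least 2-fold lower, 1 of 44 beside a background of 5.88%. These shares, on so few genes, do not set the family apart from the rest of the array. On average over both arrays, 25 of the 44 were at or above the median level of all named genes. Within it, the chains of types I and III were on the higher side and those of type VI on the lower side.

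**Figure D1:**
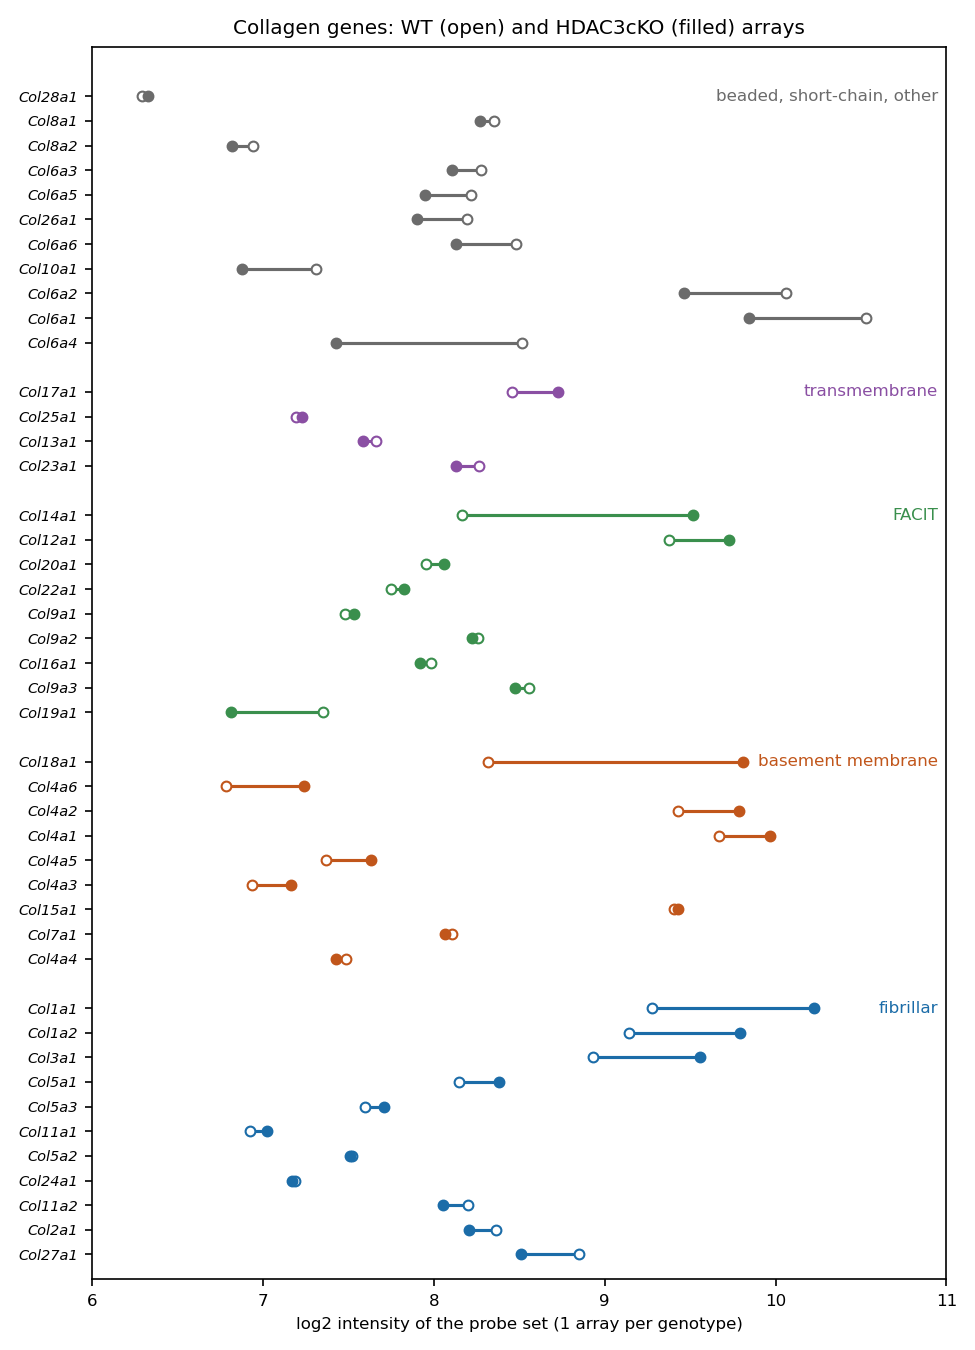
Log2 intensity of the probe set of each of the 44 collagen genes on the WT-labelled array (open circle) and the HDAC3cKO-labelled array (filled circle), grouped by collagen class and ordered within a class by the difference. The longest lines are those of Col18a1, Col14a1 and Col6a4, and all 6 type VI genes have the filled circle on the left. Levels of different genes come from different probes and are not to be compared.

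Among the fibrillar collagens, the chains of types I and III were higher on the HDAC3cKO-labelled array and the others differed less. Col1a1, which encodes the main chain of type I, the chief fibre of skin, bone and tendon, had an intensity of 620 on the WT-labelled array and 1197 on the HDAC3cKO-labelled one, which is 0.95 on the log2 scale or 1.93-fold. Its partner chain Col1a2 had intensities of 564 and 886, a difference of 0.65 or 1.57-fold. Col3a1, the chain of type III, which is laid down with type I in extensible tissue, had intensities of 488 and 752, a difference of 0.62 or 1.54-fold. All 3 lay short of 2-fold and on the same side. Type V nucleates and limits the width of type I fibrils. Its chains Col5a1, Col5a3 and Col5a2 differed by 0.24, 0.11 and -0.01. The cartilage chains Col2a1, Col11a1 and Col11a2 differed by -0.16, 0.10 and -0.15. The more recently described fibrillar collagens Col24a1 and Col27a1 differed by -0.02 and -0.34, the latter the lowest of this group. Of the 11 fibrillar genes 6 were above 0, beside 51.0% of all named genes, with a median of 0.10. None was 2-fold higher or lower, beside 2.97% and 5.88% of all named genes, so these counts do not set the group apart.

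In the basement membrane group 7 of 9 genes were above 0, beside 51.0% of all named genes, and the median was 0.26. Col18a1, whose carboxyl-terminal fragment is endostatin, an inhibitor of vessel growth, had an intensity of 319 on the WT-labelled array and 897 on the HDAC3cKO-labelled one. That difference, 1.49 or 2.81-fold, was the highest of the 44 genes. Its nearest relative Col15a1 had intensities of 679 and 689, a difference of 0.02, so this pair of multiplexins differed unalike on these arrays. Both RefSeq starts of Col18a1 are shown above, but the positions of its array probes were not known here, and the values do not tell the starts apart.

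The 6 type IV chains had small differences, 5 of 6 of them above 0, with a median of 0.28. Col4a1 and Col4a2, the chains of nearly every basement membrane, had intensities of 814 and 689 on the WT-labelled array, and of 1000.4 and 882 on the HDAC3cKO-labelled one, with differences of 0.30 and 0.36. The chains found with them in a smaller set of tissues were below the median level of all named genes on average over both arrays. Of these, Col4a6 and Col4a5 differed by 0.46 and 0.26, and Col4a3 and Col4a4, which with Col4a5 make up the mature glomerular membrane of the kidney, by 0.23 and -0.06. Col7a1, the chain of the anchoring fibrils under stratified epithelium, differed by -0.04.

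Of the FACIT genes, 1 stood out from the rest. Col14a1, which binds the surface of type I fibrils, had an intensity of 287 on the WT-labelled array and 734 on the HDAC3cKO-labelled one, a difference of 1.35 or 2.56-fold. Col12a1, the FACIT most like it in structure, had intensities of 665 and 847, a difference of 0.35. Col19a1, a minor collagen of basement membrane zones, went the other way with intensities of 163 and 113, a difference of -0.54. The other 6 differed by between -0.08 (Col9a3) and 0.11 (Col20a1), the type IX chains of cartilage among them. The group median was 0.05, so the value of Col14a1 was not shared by the group.

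The transmembrane collagens differed little. Col17a1, the hemidesmosomal collagen of basal keratinocytes and the family member most tied to epithelium, had an intensity of 351 on the WT-labelled array and 423 on the HDAC3cKO-labelled one, a difference of 0.27. Col25a1, Col13a1 and Col23a1 differed by 0.04, -0.07 and -0.13. The group median was -0.02 and none of the 4 was 2-fold higher or lower, beside 2.97% and 5.88% of all named genes.

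All 6 type VI chains were lower on the HDAC3cKO-labelled array. Their median was -0.47, beside 48.3% of all named genes below 0. Col6a1 and Col6a2, partners in every type VI trimer, differed by nearly the same amount. Col6a1 had an intensity of 1481 on the WT-labelled array and 921 on the HDAC3cKO-labelled one, a difference of -0.69 or 1.61-fold. For Col6a2 the intensities were 1067 and 707, a difference of -0.59 or 1.51-fold. Col6a3, the classical partner of those chains, had intensities of 309 and 276, a difference of only -0.17. Of the chains that can take its place in the trimer, Col6a4 had intensities of 366 and 172, a difference of -1.09 or 2.13-fold, and was the lowest of the 44 genes. Its mean over both arrays was below the median level of all named genes, and the difference was -0.87 with a pseudocount of 64. Col6a6 and Col6a5 differed by -0.36 and -0.27, and their other probe sets by -0.46 and -0.12. In the whole group of 11, 10 genes were below 0 and the median was -0.29. Col10a1 of hypertrophic cartilage differed by -0.44, Col26a1 by -0.29 and Col28a1 by 0.04. Col8a2 and Col8a1, the short chains of the lattice under the corneal endothelium, differed by -0.12 and -0.08.

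**Figure D2:**
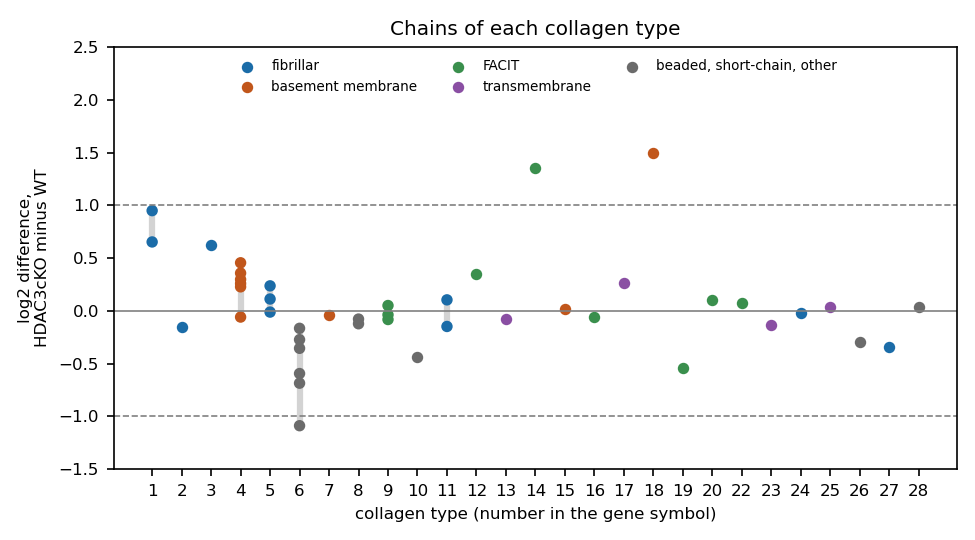
Log2 difference (HDAC3cKO minus WT) of each collagen gene, by collagen type on the horizontal axis, coloured by class; a grey bar joins the chains of a type and dashed lines mark 2-fold. Type I lies between 0.65 and 0.95, type IV between -0.06 and 0.46 and type VI between -1.09 and -0.17.

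Collagen genes often sit side by side in the genome, and 8 pairs of the 44 are direct neighbours among protein-coding genes of the RefSeq table (GRCm38.p6). In 5 of the 8 pairs both genes differed in the same direction, and the share over all neighbouring genes was not computed. Singly, 51.0% of all named genes were above 0 and 48.3% below. Col6a2 with Col6a1, Col6a6 with Col6a5 and Col6a5 with Col6a4 are among the 5, and all 6 type VI chains were below 0. The closest of the 8 pairs was Col4a1 and Col4a2, which lie head to head on opposite strands. Their 300-base promoter windows overlap by 78 bases. They differed by 0.30 and 0.36. Col6a6 and Col6a5 on chromosome 9, and Col6a2 and Col6a1 on chromosome 10, were also within 0.1 of each other. Col6a5 and its other neighbour Col6a4 were 0.82 apart. Col3a1 and Col5a2 on chromosome 1, both of them fibrillar genes, were 0.64 apart, at 0.62 and -0.01, and Col9a1 and Col19a1 were 0.59 apart, at 0.05 and -0.54. Neighbours therefore went together for some pairs and apart for others.

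Genes that modify and fold collagen chains stood further from 0 than the chains themselves. Of 18 such genes, 7 passed 2-fold upward on the HDAC3cKO-labelled array and 0 downward, beside 2.97% and 5.88% of all named genes, and the list median was 0.50. With a pseudocount of 64, 2 of the 18 were 2-fold higher, beside 2.08% of all named genes. Serpinh1, the collagen-specific chaperone HSP47 of the endoplasmic reticulum, had log2 levels of 9.18 and 10.48 on the WT-labelled and HDAC3cKO-labelled arrays, a difference of 1.30. P3h4, a partner of lysyl hydroxylase in cross-link formation, differed by 1.28, and Fkbp14, a prolyl isomerase, by 1.20. Plod2, the lysyl hydroxylase of the chain ends, differed by 1.02 (0.98 after loess scaling), and P4ha1, the catalytic subunit of prolyl 4-hydroxylase, by 0.82. These enzymes serve many collagen types, and the list does not show which chains they acted on.

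Genes of later steps in collagen assembly went both ways. None of the 8 secretion genes was 2-fold higher or lower (1 was lower after median centring), beside 2.97% and 5.88% of all named genes. Their median was 0.09. Of 11 genes of propeptide removal and cross-linking, Tll1, a protease related to BMP1, was 1.87 higher and Pcolce2, an enhancer of propeptide cleavage, 1.84 lower on the log2 scale. Bmp1, the main carboxyl-propeptide protease, differed by 0.23 and Lox, which oxidises lysines for cross-links, by 0.18. Among 11 degradation genes and inhibitors the gelatinases were opposed, Mmp2 at 2.04 and Mmp9 at -2.04. The median was -0.03, and 0.56 over those of the 11 at or above the median level of all named genes.

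Receptors of collagen and proteins laid down with it were mostly above 0. Of 10 receptors 3 passed 2-fold upward, beside 2.97% of all named genes, and the list median was 0.54. The endocytic receptor Mrc2 differed by 1.48, and Ddr2 and Ddr1, receptor tyrosine kinases that bind collagen, by 1.34 and 1.03 (Ddr1 0.96 after loess scaling). Of 10 small leucine-rich proteoglycans, which coat fibrils, 5 passed 2-fold upward beside the same 2.97% (3 with a pseudocount of 64, and 3 among genes at or above the median level), and the list median was 0.94. They included Ogn at 2.83, Prelp at 2.08, Aspn at 1.51 and decorin (Dcn), a type I fibril binder, at 1.45. Of 15 basement membrane partners, 14 were above 0 and 3 passed 2-fold upward, beside 51.0% and 2.97% of all named genes, and the list median was 0.53. Nid1, which bridges laminin and type IV collagen, differed by 1.44, Lamc1, a laminin chain, by 1.17, the proteoglycan Agrn by 1.07 and perlecan (Hspg2) by 0.86. Type IV chains had a median of 0.28 beside these partners. Of the 5 hemidesmosome genes, in whose complex type XVII sits, none was 2-fold higher or lower, beside 2.97% and 5.88% of all named genes. In that list 3 genes were above 0, beside 51.0% of all named genes, and 2 were below. The list median was 0.39. Itga6 and Itgb4, both among the 3 above 0, differed by 0.94 and 0.39.

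**Figure D3:**
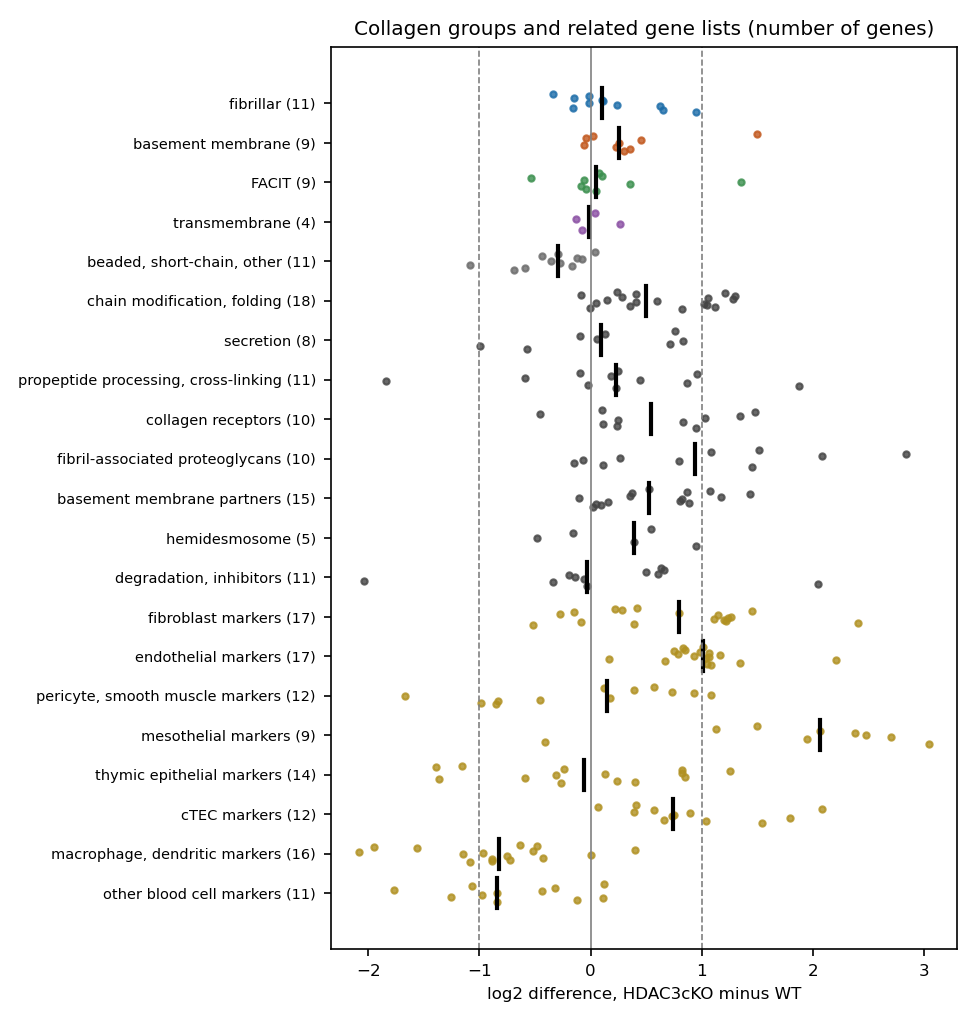
Log2 difference (HDAC3cKO minus WT) of each gene in the 5 collagen groups, the 8 lists of collagen-related genes (dark grey) and the 8 lists of cell type markers (yellow); black bars are list medians and dashed lines mark 2-fold. The collagen medians lie between -0.29 and 0.26, below those of the proteoglycans (0.94), the endothelial markers (1.01) and the mesothelial markers (2.06).

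Markers of other cell types were compared in the same way. Of all named genes, 2.97% passed 2-fold upward, 5.88% passed it downward and 51.0% were above 0, and the counts of each marker list stand beside these shares. Of 17 fibroblast markers that are no collagens, 8 passed 2-fold upward on the HDAC3cKO-labelled array and 0 downward. Their median was 0.79, and their summed intensity was 12423 on the WT-labelled array and 25273 on the HDAC3cKO-labelled one. That sum is weighted toward Dcn, the most intense of them, with log2 levels of 11.84 and 13.29 in the same order. Dcn and Lum, the latter at -0.15 and named here only for this overlap, are also in the proteoglycan list above. The 2 lists are therefore not separate. Of the 17 fibroblast markers, 13 were above 0 and 4 below. Mfap5 differed by 2.40, Dcn by 1.45 and Cd34 by 1.26. Pdgfra, the receptor that defines many fibroblasts and 1 of the 4 below 0, differed by -0.52. Of 9 mesothelial markers 8 passed 2-fold upward and the other, Msln, named here after its value was seen, differed by -0.41. Their median was 2.06, and their summed intensities were 3887 and 10012 in the same order. They were led by Upk3b at 3.04, Lrrn4 at 2.70 and Gpm6a at 2.48. Every one of 17 endothelial markers was above 0 and 9 passed 2-fold. Their median was 1.01, and their summed intensities were 11802 and 24383. Emcn differed by 2.20, Kdr by 1.34, Egfl7 by 1.17, Pecam1 by 1.08 and Cdh5 by 1.05 (0.96 after loess scaling). The medians of these 3 lists, and that of the cortical epithelial markers given below, were above 0. So were those of several collagen-related lists above, and the values of 21 of the 44 collagen genes and 51.0% of all named genes.

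Pericyte and smooth muscle markers had summed intensities of 17497 and 11338, a sum weighted toward the most intense of them. Of these 12 markers 7 were above 0, beside 51.0% of all named genes. Their median was 0.14, with Mylk at 1.08 and Des at -1.67, so the sum and the median differ in direction. Over the markers at or above the median level of all named genes the median was -0.65. Macrophage and dendritic cell markers were lower, 5 of 16 past 2-fold beside 5.88% of all named genes. Their median was -0.82, and their summed intensities were 18841 and 8579. Laptm5, Xcr1 and Flt3 differed by -2.08, -1.95 and -1.56. Of the 11 other blood cell markers 3 passed 2-fold downward. Their median was -0.84, and their summed intensities were 5273 and 3262. Cd79b, Cd4 and Pf4 differed by -1.76, -1.26 and -1.07, and Ptprc, which encodes CD45, by -0.84.

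Among epithelial markers the lists differed. The 14 thymic epithelial markers had a median of -0.06, with 7 above 0 and 7 below. Their summed intensities were 69942 and 75818. That sum is weighted toward the most intense of them, and the sum and the median differ in direction. Epcam differed by -0.27 and Foxn1 by 0.13, while Pax1 was 1.25 higher and Cldn3, Krt14 and Cldn4 differed by -1.39, -1.36 and -1.16. The 12 markers of cortical thymic epithelium were all above 0, and 4 passed 2-fold. Their median was 0.74 and their summed intensities were 11333 and 20546, led by Kitl at 2.08, Cxcl12 at 1.79 and Psmb11 at 1.54. No marker in any of these lists was at 0 on either array, and there are no detection calls. The part of any of these cell types in the collagen values was not tested, and in RNA of pooled cells fewer cells of a type and less RNA per cell cannot be told apart.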

How the data were processed

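Amplified RNA of sorted mTEC was measured on Affymetrix Mouse Gene arrays (the 1-ST design), 1 for each genotype. The deposited table holds 1 linear intensity for each of 34760 probe sets and array, from 10.8 to 29745. Per the submitters' processing notes the intensity values come from RMA, which corrects background, normalizes and summarises probes. The sources used here do not give its version, its settings or the genome build. Values were transformed to log2 with no pseudocount or further scaling. Of the probe sets, 21640 had 1 gene symbol in the platform annotation, 1321 had several and were not used, and 11799 were unnamed here. The highest-mean probe set was taken for a gene with several. Genes were counted past 2-fold over all 19937 named genes, with the same shares over all of them as background. No test was possible with 1 array for each genotype, whose number limits the precision.

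Every collagen gene could be named. From each other list up to 3 genes each way of at least 2-fold were named, beside a fixed set named whatever their values (Hdac3, Epcam, Foxn1, Serpinh1, P4ha1, Plod2, Lox, Bmp1, Ddr1, Ddr2, Itga6, Itgb4, Nid1, Hspg2, Pecam1, Cdh5, Pdgfra, Dcn, Upk3b and Ptprc). The members and lists were chosen with earlier results of these data known. List genes without a probe set of their own were not analysed here. Alternatives were median centring, quantile normalization, loess (span 0.3), the mean of probe sets, pseudocounts of 16 and 64, a filter at the median level (8.03) and thresholds of 1.5-fold and 3-fold. The counts and scalings were tested on simulated data. Tables were made in pandas 2.3.3 and numpy 2.4.6 under Python 3.11.15, the loess curve in statsmodels 0.14.6, and plots in matplotlib 3.10.9.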

Additional observations from a re-analysis of the deposited data

How the results depend on the processing

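The direction of every collagen gene that differed by 0.5 or more (9 genes) was the same under median centring, quantile normalization, loess, the mean of probe sets and both pseudocounts. Of the 44 genes 3 turned sign under 1 or more of these, none of them with a difference beyond 0.02. The count of collagen genes at least 2-fold lower, in the family, in the group of beaded, short-chain and other collagens and in type VI, is the single gene Col6a4, and it became 0 with a pseudocount of 64, among genes at or above the median level, and at a 3-fold threshold. At 3-fold the count of higher genes was 0 in the family, the basement membrane group and the FACIT group. With type IV chains alone the basement membrane count was 0, since Col18a1 is left out. At 1.5-fold, 5 collagen genes were higher, 3 of them fibrillar, and 3 were lower, all 3 of type VI, beside 8.33% and 11.2% of all named genes. Medians of the collagen groups, between -0.29 and 0.26, were so far short of 2-fold that staying short of it under the alternatives says little. The endothelial median of 1.01 was 0.91 with a pseudocount of 64, and the count of pericyte and smooth muscle markers at least 2-fold lower was 2 in place of 1 after quantile normalization and after loess. Over genes at or above the median level, the medians of the degradation genes (0.56) and of the pericyte and smooth muscle markers (-0.65) turned sign, as did that of the transmembrane collagens (0.07), and none of the propeptide and cross-linking genes was 2-fold higher. After quantile normalization the medians of the family and of the transmembrane collagens were 0.02. No paired analysis was possible because each genotype had 1 array, and for the same reason no replicate could be left out. Without detection calls, a level near background cannot be told from absence, and a fold there may misstate the difference.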
